A study of Mus musculus with 4 samples.

Results

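Zfp423 and Zfp521 encode related C2H2 zinc finger transcription factors with opposed parts in the commitment of mesenchymal cells to fat. Open chromatin around both genes was taken from 4 ATAC-seq libraries, an assay in which a transposase inserts adapters into accessible DNA and a pile-up of insertions is called as a peak. The members were chosen by position, as every peak that overlapped an interval set for each gene on the mouse build mm9. For Zfp423 this was chromosome 8 from 90100000 to 90600000 (500 kb), and for Zfp521 chromosome 18 from 13600000 to 14050000 (450 kb). The libraries came from adipose progenitors freshly isolated from C57BL/6 mice aged 16 weeks, with no further treatment. There were 2 libraries from subcutaneous fat, called SAT 1 and SAT 2 here, and 2 from visceral fat, called VAT 1 and VAT 2. How the progenitors were isolated, whether animals were pooled and whether both libraries of 1 depot stem from different mice is not given in the sources used here, so the spread between libraries may be technical. Peaks of the 4 lists that shared at least 1 bp were joined into regions. The Zfp423 interval held 44 regions and the Zfp521 interval 24, which makes 68 of 83319 regions in the series.

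Zfp423 is known in mice as a factor that marks committed preadipocytes and raises Pparg, the receptor that drives fat cell differentiation, through BMP signalling and its Smad partners. It was first described as a partner of Ebf factors, and in mature white fat cells it restrains the Ebf2-driven thermogenic programme. Zfp521 is its paralogue and is known in mice as a brake on adipogenesis, which binds Ebf1 and keeps Zfp423 low, and which favours immature progenitor states. Regulatory elements of such developmental genes are often spread over long introns and gene-poor flanks.

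The promoters of Zfp423 are shown because they give the sequence context of the gene, since bases under the peaks could not be read without an mm9 genome. RefSeq lists 2 of them on build GRCm38.p6, each running from 250 bp before to 50 bp after a gene start, on the minus strand, at chr8:87959546-87959845 and chr8:87804390-87804689. These positions cannot be set beside mm9 positions, so neither promoter was placed among the regions below. Capitals mark the GC box GGGCGG (searched on both strands), a motif of Sp and Klf factors.

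Zfp423 promoter 1: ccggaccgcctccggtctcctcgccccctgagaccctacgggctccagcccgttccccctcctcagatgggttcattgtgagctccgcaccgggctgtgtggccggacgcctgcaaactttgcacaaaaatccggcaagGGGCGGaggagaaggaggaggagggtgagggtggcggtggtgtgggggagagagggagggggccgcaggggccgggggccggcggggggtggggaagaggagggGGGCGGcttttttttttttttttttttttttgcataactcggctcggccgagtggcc
Zfp423 promoter 2: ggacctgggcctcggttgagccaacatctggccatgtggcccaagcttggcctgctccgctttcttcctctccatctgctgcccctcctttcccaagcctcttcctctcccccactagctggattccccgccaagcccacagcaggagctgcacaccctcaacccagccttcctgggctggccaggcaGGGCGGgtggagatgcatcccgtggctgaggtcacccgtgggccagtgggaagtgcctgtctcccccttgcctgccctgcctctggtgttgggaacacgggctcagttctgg

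The first holds 2 GC boxes and 21 CpG dinucleotides at 65.7% G+C, and the second holds 1 GC box and 7 CpG dinucleotides at 65.0% G+C. Of all 32851 RefSeq mouse promoters of this length, 35.7% held at least 1 GC box, and the medians were 7 CpG dinucleotides and 52.7% G+C. The TATA box TATAAA, found on either strand in 13.6% of promoters, was in neither sequence. These matches describe the letters and show no binding.

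Both intervals held many regions, but few of high rank. The Zfp423 interval had more regions than 94.2% of the 5168 tiles of 500 kb on the autosomes and X, whose median was 12 (quartiles 3 and 26). Scaled to the same length, the Zfp521 interval had 26.7 regions per 500 kb, more than 76.4% of tiles. Rank is given as a percentile of the peak caller's score within the library's own list, with the highest score at 100. By this measure 0 of the 89 peaks in the Zfp423 interval stood at a percentile of 90 or more in its list, and 36 stood at 50 or more. In the Zfp521 interval 1 of 46 peaks stood at 90 or more and 16 at 50 or more. By definition about 50% of the peaks of a whole list stand at 50 or more. The counts depend on the edges, since peaks at 90 or more lay within 250 kb above both intervals, as given below. The median region was 262 bp wide in the Zfp423 interval and 177 bp in the Zfp521 interval, against 228 bp over the series.

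**Figure D1:**
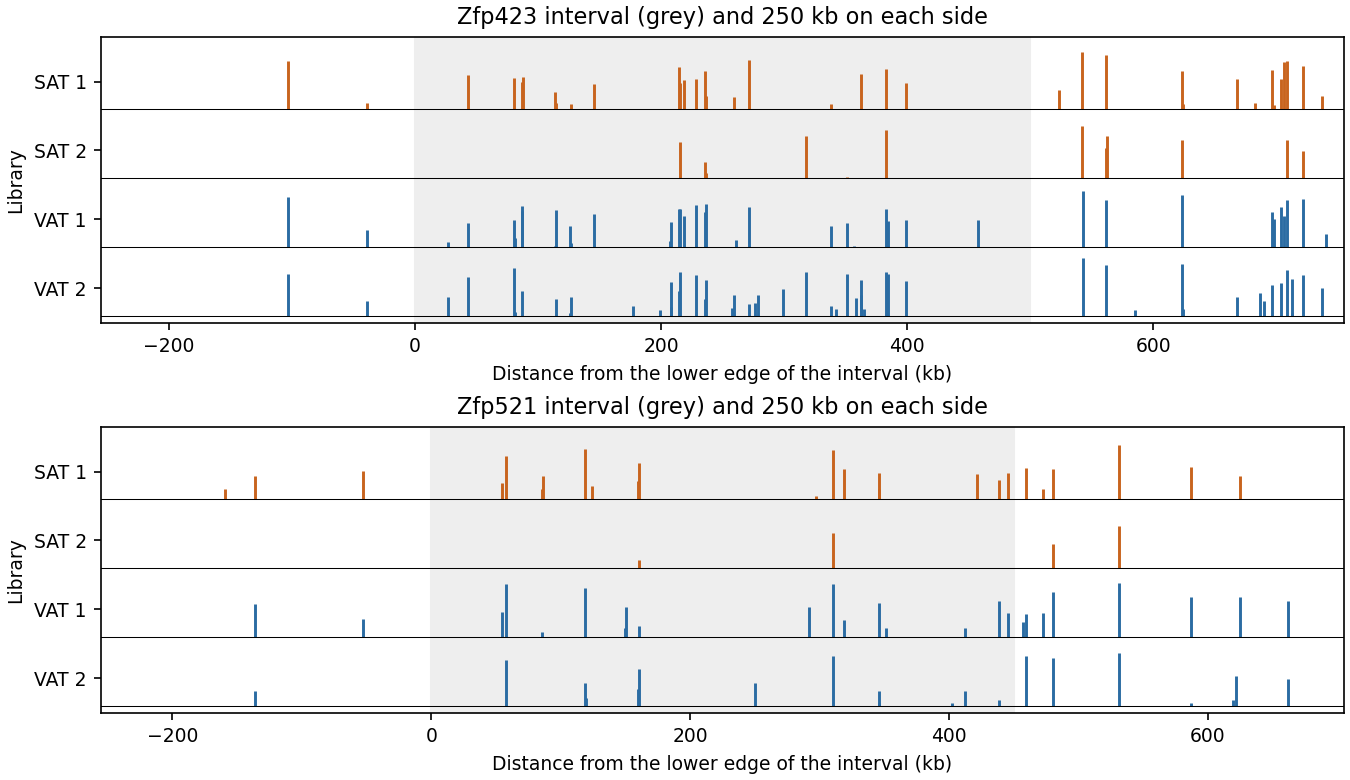
Peaks of the 4 libraries around Zfp423 (above) and Zfp521 (below), by distance in kb from the lower edge of each interval (grey). Each vertical line is 1 peak, its height is the score percentile within its list (a full row is about 100), orange is subcutaneous and blue is visceral; SAT 2 has 6 and 2 peaks within the grey intervals, and the tallest lines shared by all libraries stand to the right of both.

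Depth is unknown, because the lists hold positions and scores but not counts of reads, and a site with no peak is not shown to be closed. SAT 2 had the shortest list, with 22845 peaks against 56823 in SAT 1, 56907 in VAT 1 and 62279 in VAT 2. A percentile is taken within a list, so the same value leaves fewer peaks above it in SAT 2. Percentiles of SAT 2 and of the longer lists are therefore not on a common scale. Its part in the depot values below was not tested, and values without it are given where they differ. No gene annotation of mm9 was used, so regions are not assigned to promoters, exons or introns, and the progenitor label was not checked against marker genes. Whether the intervals span both genes whole was not checked either. In the RefSeq gene table of build GRCm38, the span of Zfp521 falls within the limits of its mm9 interval, whereas that of Zfp423 does not, so the Zfp521 interval may be offset from the gene on mm9.

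Zfp423 carried fewer peaks in the subcutaneous than in the visceral lists. The number was 21 in SAT 1 and 6 in SAT 2, against 28 in VAT 1 and 34 in VAT 2. The depots did not overlap, but the subcutaneous libraries lay further from each other than SAT 1 lay from VAT 1. The means were 13.5 ± 10.6 peaks for SAT and 31.0 ± 4.2 for VAT (SD, n = 2 each), a difference of -17.5 peaks (-10.0 without SAT 2, and -3.0 with every list cut to its 22845 highest-scoring peaks). A two-sided exact permutation test gave p = 0.33, the lowest value possible with 2 libraries per depot. Both visceral libraries also exceeded both subcutaneous libraries in 24.0% of the 4699 tiles of 500 kb that held a region. In the lists cut to 22845 peaks the interval held 5 peaks in SAT 1 and 6 in SAT 2, against 9 in VAT 1 and 8 in VAT 2. Per 10000 peaks of each full list, a plain scaling by list length, it held 3.70 peaks in SAT 1 and 2.63 in SAT 2, against 4.92 in VAT 1 and 5.46 in VAT 2. On this scale 11.9% of those tiles showed the same order, and 13.7% of the 1851 tiles with 20 or more regions did. With only the top 10000 peaks per list, a cutoff tried once the values were known, the order was the other way, with 1 peak in SAT 1 and 3 in SAT 2 against 0 in both visceral lists.

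For Zfp521 the depots overlapped. Its interval held 17 peaks in SAT 1 and 2 in SAT 2, against 15 in VAT 1 and 12 in VAT 2. SAT 1 was the highest and SAT 2 the lowest of the libraries. The means were 9.5 ± 10.6 peaks for SAT and 13.5 ± 2.1 for VAT (SD, n = 2 each), and the difference of -4.0 peaks gave p = 1 in the same exact permutation test. Without SAT 2 the difference was 3.5 peaks, with SAT 1 above both visceral libraries, and without SAT 1 it was -11.5. Per 10000 peaks of the list the values were 2.99 in SAT 1 and 0.875 in SAT 2, against 2.64 in VAT 1 and 1.93 in VAT 2.

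**Figure D2:**
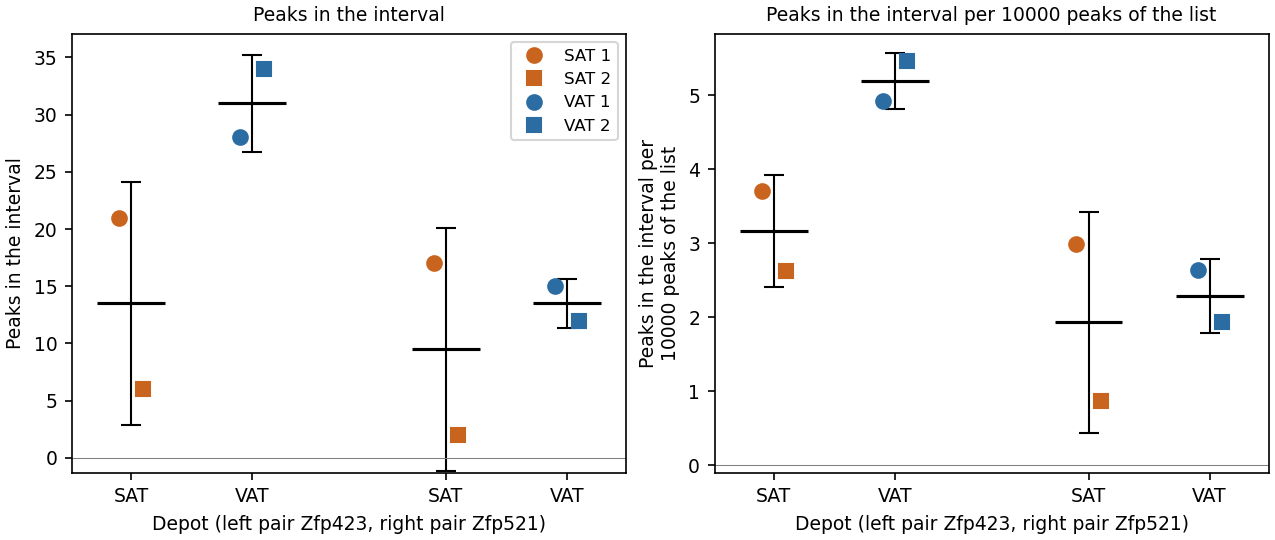
Number of peaks in each interval per library (left) and the same per 10000 peaks of the library's list (right). Circles are replicate 1 and squares replicate 2, horizontal lines are means and error bars the SD over 2 libraries; SAT lies below VAT for Zfp423 in both panels, whereas SAT 1 is the highest of the libraries for Zfp521.

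The intervals were also compared by a ratio of peak numbers within each library, a measure chosen once the values were known. Zfp423 had 1.24 times the peaks of Zfp521 in SAT 1 and 3.0 times in SAT 2, against 1.87 times in VAT 1 and 2.83 times in VAT 2. Every library thus had more peaks in the Zfp423 interval, 500 kb long, than in the Zfp521 interval, 450 kb long. The Zfp521 interval may be offset from its gene on mm9, so the ratio need not compare the genes themselves. The log2 ratio averaged 0.94 ± 0.91 in SAT and 1.20 ± 0.43 in VAT (SD, n = 2 each), a difference of -0.26 (exact permutation p = 1, two-sided). Both replicate 2 libraries had a higher ratio than both replicate 1 libraries, and the ratio in SAT 2 rests on 2 peaks at Zfp521. The difference was -0.63 with lists of equal length, 0.38 without SAT 1 and -0.90 without SAT 2.

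Few regions of either gene had a peak in all 4 libraries. There were 4 of 44 in the Zfp423 interval (9.09%) and 2 of 24 in the Zfp521 interval (8.33%), against 23.2% of regions in the series. Regions with a peak in every library except SAT 2 numbered 10 at Zfp423 (22.7%) and 4 at Zfp521 (16.7%), near the 19.5% of the series. One region at Zfp423 lacked a peak in SAT 1 alone (0.468% of the series), and 0 regions lacked one in VAT 1 alone or in VAT 2 alone (0.457% and 0.245%). Regions with a peak in a single library made up 18 at Zfp423 (40.9%) and 10 at Zfp521 (41.7%), against 36.4% of the series. At Zfp423, 12 of these 18 belonged to VAT 2, 5 to VAT 1, 1 to SAT 1 and 0 to SAT 2. At Zfp521 they were divided into 4 of SAT 1, 4 of VAT 1 and 2 of VAT 2. Of the 30319 such regions of the series, 16340 belonged to VAT 2, 7145 to VAT 1, 6534 to SAT 1 and 300 to SAT 2. VAT 2 thus held most of them in the series as well. At Zfp423 the region of SAT 1 stood at 0.6, and the median percentile was 12.6 in VAT 1 and 16.0 in VAT 2, against 17.5 and 25.3 over such regions of the series. At Zfp521 it was 30.7 in SAT 1, 32.9 in VAT 1 and 21.8 in VAT 2, against 17.9, 17.5 and 25.3 over the series.

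**Figure D3:**
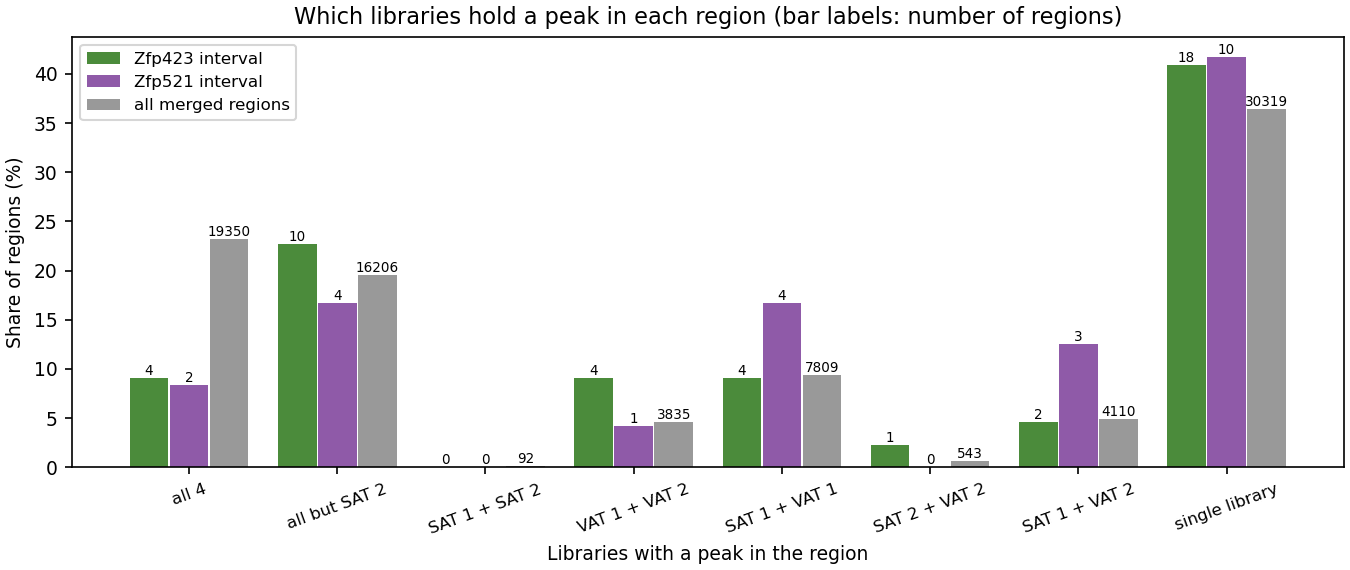
Share of regions by the libraries that hold a peak in them, in the Zfp423 interval (green), the Zfp521 interval (purple) and the series (grey), with the number of regions above each bar. Regions with a peak in all 4 libraries made up 9.09% and 8.33% in the intervals and 23.2% in the series.

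Among the 4 regions at Zfp423 with a peak in every library, the one with the highest rank in its weakest library lay on chromosome 8 at 90482734 to 90483279. Its score percentile was 67.7 in SAT 1 and 81.3 in SAT 2, against 64.9 in VAT 1 and 74.7 in VAT 2. It was 546 bp wide, and the percentiles of the depots overlapped. This was the highest-ranking peak of SAT 2 in the interval.

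The other regions at Zfp423 with a peak in all 4 libraries lay close together, between 90315074 and 90336486. The first, at 90315074 to 90315369, stood at 45.2 in SAT 1 and 61.4 in SAT 2, against 65.6 in VAT 1 and 75.2 in VAT 2. The second, at 90335547 to 90336017, stood at 65.3 in SAT 1 and 28.1 in SAT 2, against 59.3 in VAT 1 and 29.3 in VAT 2. The third lay directly beside it, at 90336131 to 90336486, and stood at 22.4 in SAT 1 and 8.6 in SAT 2, against 74.1 in VAT 1 and 61.6 in VAT 2. In the second region both replicate 1 libraries stood above both replicate 2 libraries. The third was low in both subcutaneous and high in both visceral libraries, with a difference of mean percentile of -52.3. The share of regions in the series with such an order is not given here. These neighbours were not separate under every setting. With peaks within 500 bp merged they were joined, and 3 regions at Zfp423 had a peak in all 4 libraries. In each of the 4 regions at Zfp423 with a peak in every library, SAT 2 had the narrowest peak, from 108 to 173 bp.

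The 10 regions at Zfp423 that lacked a peak only in SAT 2 included the widest of the interval, 597 bp at 90328228 to 90328824. It stood at 52.1 in SAT 1, against 70.9 in VAT 1 and 70.7 in VAT 2. Next by weakest library was 90180387 to 90180647, at 53.5 in SAT 1, against 46.1 in VAT 1 and 81.7 in VAT 2. It was followed by 90498778 to 90499154, at 45.2 in SAT 1, against 46.1 in VAT 1 and 59.8 in VAT 2. SAT 1 was below both visceral libraries in the first and last of these, and between them in the second. With SAT 2 left out, 14 regions were common to the remaining libraries.

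No region of either gene had a peak in both subcutaneous libraries and in neither visceral one, a pattern that 0.110% of regions in the series showed. The opposite pattern, a peak in both visceral and in neither subcutaneous library, was found in 4 regions at Zfp423 (9.09%) and 1 at Zfp521 (4.17%), against 4.60% of the series. At Zfp423, 90484360 to 90484681 stood at 43.9 in VAT 1 and 72.2 in VAT 2, and its weaker peak ranked 268 among the 3835 regions of this kind. The region at 90308166 to 90308457 stood at 43.1 in VAT 1 and 57.7 in VAT 2. The region at 90126645 to 90126925 stood at 9.0 in VAT 1 and 32.7 in VAT 2, and that at 90225916 to 90226138 stood at 35.4 in VAT 1 and 4.4 in VAT 2. At Zfp521 the region at 14012119 to 14012532 stood at 15.2 in VAT 1 and 25.3 in VAT 2, in the lower part of both lists.

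In other regions the only peaks came from libraries of the same replicate number, at Zfp423 for replicate 1 at a share near that of the series. A peak in SAT 1 and VAT 1 and in neither replicate 2 library was found in 4 regions at Zfp423 (9.09%) and 4 at Zfp521 (16.7%), against 9.37% of the series. At Zfp423 the highest of these was 90318461 to 90318690, at 48.9 in SAT 1 and 52.7 in VAT 1. It was followed by 90186703 to 90187058, at 47.1 in SAT 1 and 60.9 in VAT 1, and by 90245422 to 90245688, at 42.9 in SAT 1 and 55.8 in VAT 1. The last, 90213872 to 90214142, stood at 30.0 in SAT 1 and 1.8 in VAT 1. The regions next above 90186703 to 90187058 and 90213872 to 90214142 did hold a VAT 2 peak. They lay at 90187272 to 90187685 and 90214319 to 90214516. At Zfp521 the highest was 14045494 to 14045717, at 45.2 in SAT 1 and 41.4 in VAT 1, followed by 13918919 to 13919125 and 13654823 to 13654982, with weaker peaks at 29.0 and 27.9. The last, 13685778 to 13686103, stood at 17.9 in SAT 1 and 9.0 in VAT 1. No region of this kind at either gene stood at a percentile of 50 or more in both lists.

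A single region at Zfp423, at 90417464 to 90417864, had a peak in SAT 2 and VAT 2 and in neither replicate 1 library. It stood at 71.5 in SAT 2 and 74.7 in VAT 2, with scores of 129 and 181. This kind made up 0.652% of the series, and by its weaker peak the region ranked 7 of 543. It was the only region of either gene that the short SAT 2 list held and the longer SAT 1 and VAT 1 lists both lacked. Among the crossed patterns, SAT 1 with VAT 2 was found in 2 regions at Zfp423 and 3 at Zfp521 (4.93% of the series), and SAT 2 with VAT 1 in 0 (0.0960%). The stronger region of SAT 1 with VAT 2 at Zfp423, 90462803 to 90463076, stood at 60.7 in SAT 1 and 61.3 in VAT 2 and ranked 48 of 4110; it was named after its value was seen.

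Of the 2 regions at Zfp521 with a peak in every library, the one with the higher rank in its weakest library lay on chromosome 18 at 13910557 to 13910817. It stood at 83.0 in SAT 1 and 59.8 in SAT 2, against 91.2 in VAT 1 and 85.3 in VAT 2. Its peak in VAT 1 was the only one of the interval at a percentile of 90 or more, and both visceral libraries were above both subcutaneous ones. How many regions of the series with a peak in all 4 libraries showed this order is not given here. The other region with a peak in all 4 libraries, at 13760408 to 13760843, stood at 61.2 in SAT 1 and 14.6 in SAT 2, against 18.8 in VAT 1 and 62.6 in VAT 2. Here the order was crossed, with SAT 1 and VAT 2 high and SAT 2 and VAT 1 low.

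Regions at Zfp521 that lacked a peak only in SAT 2 included strong ones. The region at 13657491 to 13658050, 560 bp wide, stood at 73.0 in SAT 1, against 89.8 in VAT 1 and 79.1 in VAT 2. By its weakest peak it ranked 439 of the 16206 regions of this kind. The region at 13718760 to 13719265 stood at 85.6 in SAT 1, against 84.4 in VAT 1 and 39.3 in VAT 2, and was the highest-ranking SAT 1 peak of the interval. The region at 13945878 to 13946287 stood at 45.2 in SAT 1, against 58.5 in VAT 1 and 25.3 in VAT 2.

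**Figure D4:**
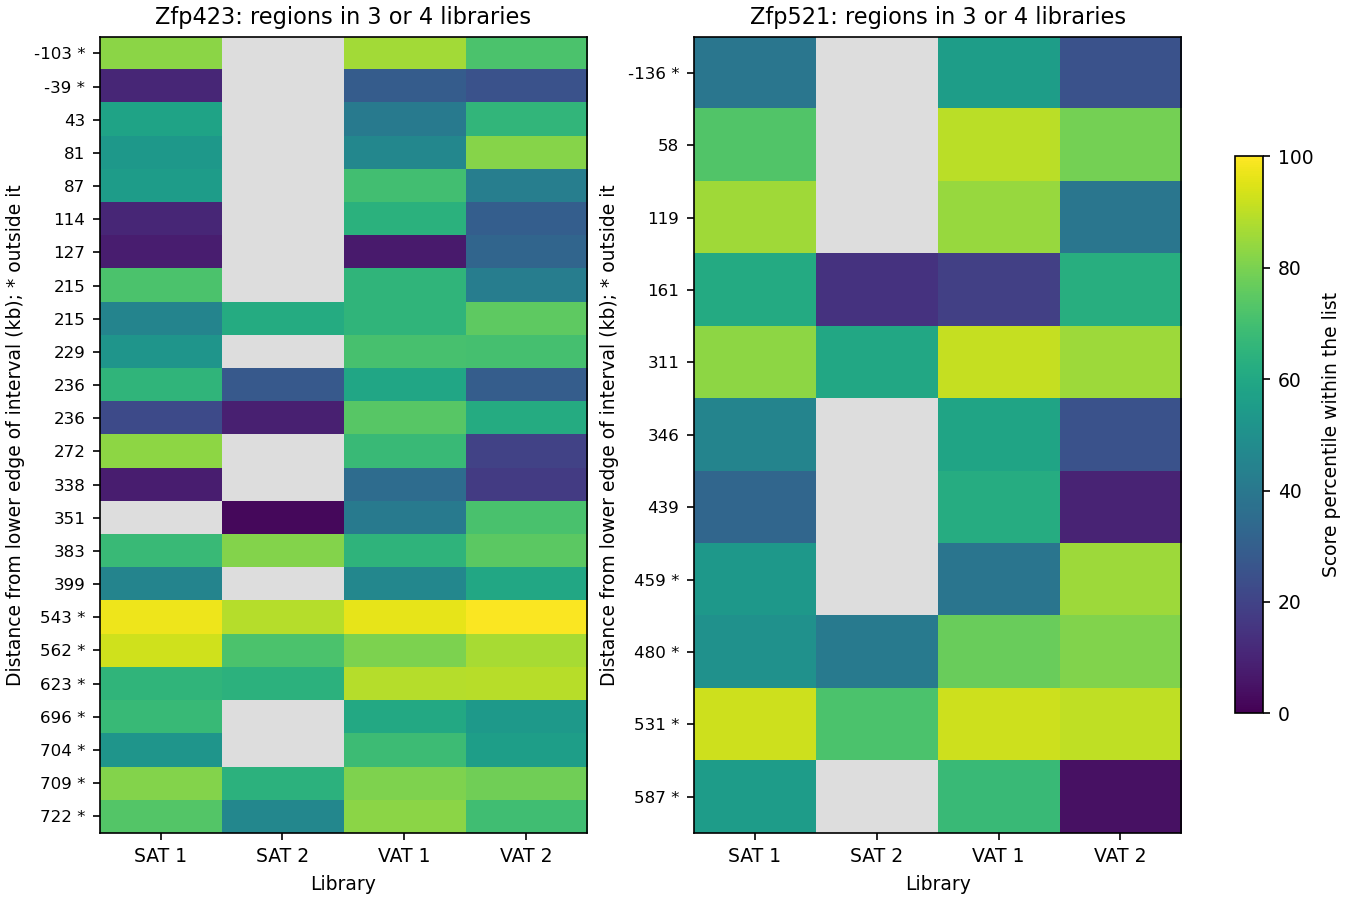
Score percentile within the list, by library, for each region with a peak in 3 or 4 libraries in and around the Zfp423 interval (left) and the Zfp521 interval (right), from low to high position; grey is no peak and a star marks regions outside the interval. The rows beyond the upper edges include the brightest, and most grey fields are in SAT 2.

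Over the regions with a peak in all 4 libraries, subcutaneous percentiles were lower on average at both genes, as they were over the series. In the series SAT 1 was level with VAT 1, and SAT 2, whose list is the shortest, was the lowest. Each such region must hold a SAT 2 peak, and 19350 of the 21340 regions of the series with a SAT 2 peak were of this kind. Percentiles of SAT 2 and of the longer lists are not on a common scale. The differences that average SAT 2 with SAT 1 therefore cannot be read as differences between depots. At Zfp423 (4 regions) the median was 55.3 in SAT 1 and 44.7 in SAT 2, against 65.3 in VAT 1 and 68.1 in VAT 2, a difference of -16.7 (exact permutation p = 0.33, two-sided, the smallest possible). At Zfp521 (2 regions) it was 72.1 in SAT 1 and 37.2 in SAT 2, against 55.0 in VAT 1 and 74.0 in VAT 2, a difference of -9.8 (p = 0.667, same exact test). Over the 19350 regions of the series with a peak in all 4 libraries the medians were 80.4 in SAT 1 and 55.6 in SAT 2, against 80.3 in VAT 1 and 83.5 in VAT 2, a difference of -13.9. Both signs depended on the lists used: with lists of equal length the difference at Zfp423 was 28.7 from 1 region, and without SAT 2 that at Zfp521 was 5.1 over 6 regions. Without SAT 2 the difference at Zfp423 was -5.0 over 14 regions, and without SAT 1 it was -40.0 over 5.

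Along the Zfp423 interval the regions were spread unevenly, which was not compared with other parts of the series. The 50 kb from 90300001 to 90350000 held 9 regions, 3 of them with a peak in all 4 libraries, and the 50 kb from 90450001 to 90500000 held 10. Above 90499154 there was a gap of 58.4 kb, the largest of the interval, and a single VAT 1 region lay beyond it. In the stretch from 90350001 to 90400000, SAT 1 had a peak in 2 regions, SAT 2 in 0, VAT 1 in 2 and VAT 2, whose list is the longest, in 6. The VAT 2 peaks there stood at percentiles from 13.7 to 45.3. The highest of the stretch was a SAT 1 peak at 83.0, in the region at 90371746 to 90372078. The share of such stretches in the series is not given here. The median gap between neighbouring regions was 5.04 kb at Zfp423 and 8.85 kb at Zfp521, where the largest gap, 89.4 kb, lay between 13760843 and 13850263.

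What the intervals hold depends on where their edges were set. The strongest nearby regions with a peak in all 4 libraries, by weakest library, lay outside both. Within 250 kb above the Zfp521 interval, 2 of 10 regions had a peak in all 4 libraries, and within 250 kb below it 0 of 3 had one. The stronger, at 14130886 to 14131612 and 80.9 kb past the edge, was 727 bp wide and stood at 92.2 in SAT 1 and 71.5 in SAT 2, against 92.3 in VAT 1 and 90.4 in VAT 2. It ranked above every region inside the interval by its weakest library, apart from 13657491 to 13658050, which SAT 2 lacks. The second, at 14079925 to 14080342, stood at 50.6 in SAT 1 and 40.7 in SAT 2, against 77.2 in VAT 1 and 81.1 in VAT 2.

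Within 250 kb above the Zfp423 interval, 5 of 20 regions had a peak in all 4 libraries, and below it 0 of 2 had one. The strongest, at 90642379 to 90643112 and 42.4 kb past the edge, stood at 97.4 in SAT 1 and 88.7 in SAT 2, against 96.4 in VAT 1 and 99.6 in VAT 2. It was followed by 90661580 to 90662364, at 92.9 in SAT 1 and 71.5 in SAT 2, against 80.2 in VAT 1 and 86.9 in VAT 2, and by 90722898 to 90724066, 1169 bp wide, whose weakest percentile was 64.3. In the order of the RefSeq gene table of build GRCm38, the next coding gene on the side of higher positions is Cnep1r1 for Zfp423 and Ss18 for Zfp521, and on the side of lower positions the next after Zfp521 is Hrh4. Which gene these outer regions belong to was not tested.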

How the data were processed

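Each of the 4 ATAC-seq libraries has its own deposited peak list with position and a score per peak. The deposited score (column 5) comes from the authors' peak caller and takes whole values from 20 upward. Its scaling is not stated, so it was used only as a percentile within a list (mean rank for ties). Per the submitters' processing notes, Bowtie2 and MACS2 were used with mm9. Versions, options, and the handling of duplicates, transposase offset and repeats: not given in the sources used here. Depth is unknown. Peaks sharing at least 1 bp were merged. Depots were compared on 1 value per library by exact permutation, two-sided. Merging was checked against bedtools 2.31.1 and on simulated peaks, with Python 3.11.15, numpy 2.4.6, pandas 2.3.3 and scipy 1.17.1; figures used matplotlib 3.10.9. Members, intervals and lists were chosen with earlier results of these data known. Named regions were those with a peak in all 4 libraries, the widest, those restricted to a depot or a replicate number (the 3 strongest where over 5), the 3 strongest missing only from SAT 2, and the 3 strongest with a peak in all 4 libraries within 250 kb outside an interval. Alternatives were other list cuts, overlaps, widths and edges, each library left out, and a replicate block. Positions count from 1 on mm9.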

Additional observations from a re-analysis of the deposited data

How the results depend on the processing

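The SAT minus VAT difference in peak number at Zfp423 (-17.5) kept its sign under every alternative run except the 10000 highest peaks per list (2.0), which was tried, like the scaling to 10000 peaks, once the values were known. Its size shrank to -3.0 with lists of equal length and -6.0 in the top 50% of each list, and was -11.5 with the interval shifted by 150 kb. With a library left out it lay between -25.0 and -10.0. At Zfp521 (-4.0) the difference was 0.0 with lists of equal length, -2.0 in the top 50%, -7.5 with the interval extended by 250 kb on each side, -0.5 among the 10000 highest peaks, and between -11.5 and 3.5 with a library left out, positive without SAT 2. The difference in median percentile at Zfp423 (-16.7) was 28.7 with lists of equal length and 9.4 in the top 50% of each list, was -9.7 with the interval shifted, and lay between -40.0 and -5.0 with a library left out; with the 10000 highest peaks no region was common and no value could be had. At Zfp521 (-9.8) it was -33.7 in the top 50%, -22.5 with the interval extended or shifted and -23.4 among the 10000 highest peaks, and lay between -27.3 and 5.1 with a library left out, positive without SAT 2. The log2 ratio of the genes (-0.26) was -0.63 with lists of equal length, -0.17 in the top 50%, 0.03 with intervals extended by 250 kb on each side and 0.00 with intervals shifted by 150 kb, and lay between -0.90 and 0.38 with a library left out; it could not be had with the 10000 highest peaks. No test could pass 0.05, since the smallest possible p is 0.33, so these p-values say nothing about stability.

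Counts of regions were small and moved with the setting. Regions with a peak in all 4 libraries (4 at Zfp423, 2 at Zfp521) were 1 and 1 with lists of equal length, 1 and 1 in the top 50%, 9 and 4 with extended intervals, 7 and 4 with shifted ones, 1 and 1 with 50% reciprocal overlap, and 0 and 1 among the 10000 highest peaks. They were 3 and 2 with peaks within 500 bp merged. With a library left out they ranged from 4 to 14 at Zfp423 and from 2 to 6 at Zfp521, highest without SAT 2. Regions restricted to SAT (0 at each gene) were 1 and 1 with lists of equal length, and from 0 to 1 at Zfp423 and 0 to 4 at Zfp521 with a library left out. Regions restricted to VAT (4 and 1) were 1 and 0 with lists of equal length, 1 and 0 in the top 50%, 2 at Zfp423 with the shifted interval, 2 at Zfp521 with the extended one, 2 and 0 with 50% reciprocal overlap, and 0 and 0 among the 10000 highest peaks. With a library left out they ranged from 5 to 16 at Zfp423, the highest without VAT 1, with 13 without SAT 1, and from 1 to 5 at Zfp521. A rise of these counts follows from the rule itself, as 1 library is then enough for its depot.

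The labels give both depots replicates 1 and 2 but do not say that a number marks a shared animal or day. Deviations of same-numbered libraries from their depot means correlated at 0.15 across the 19350 regions with a peak in all 4 libraries. With a replicate block the differences were -17.5 and -4.0 peaks and -16.7 and -9.8 percentile points, and the smallest possible p is 0.5.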
